A study of Mus musculus with 8 samples.

Results

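The genes described here are the nuclear genes for mitochondrial ribosomal proteins, taken as every gene whose symbol is Mrpl (large subunit) or Mrps (small subunit) followed by a number and at most 1 letter from a to c. The deposited tables list 77 such genes among 24411 symbols, 48 of the large and 29 of the small subunit. All 77 had enough reads to be tested, among 13506 genes tested in all, and the lowest count of any of them in any library was 105 reads. The choice rests on the symbol alone, so some proteins of the mitochondrial ribosome that carry other names are described separately.

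Mitochondrial ribosomes sit in the mitochondrial matrix and translate the few messenger RNAs encoded by mitochondrial DNA, all of which specify subunits of the respiratory chain and ATP synthase. Their ribosomal RNAs come from mitochondrial DNA, whereas all their proteins are encoded in the nucleus, made in the cytosol and imported. Compared with bacterial ribosomes they have less RNA and more protein, and many of their proteins have no bacterial counterpart. The heart, with its high demand for oxidative phosphorylation, depends on this translation.

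RNA with poly(A) tails was sequenced from snap-frozen hearts of 8 C57BL/6 mice, all of them 1 week after transverse aortic constriction (TAC), an operation that loads the left ventricle with pressure. The 4 control mice carried MerCreMer, a Cre recombinase that becomes active when a ligand is given. In the other 4 mice Yin-Yang 1 (YY1, gene Yy1), a zinc-finger transcription factor, was knocked out specifically in the heart, and these are called YY1 KO here. The sources used here do not give the promoter driving the transgene, the ligand schedule or whether the knockouts carried the same transgene. No heart without surgery was analysed, so every difference is between genotypes under load. The question is which transcripts of the mitochondrial ribosome differ between the genotypes in that setting.

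Each library held 23869112 to 23966753 reads, with 14582605 to 16000455 in genes. Yy1 fell to 58.3% of the control level in the libraries labelled YY1 KO (log2 fold change −0.78 ± 0.10, edgeR quasi-likelihood test, adjusted p = 0.000769), and the groups did not overlap. The series describes all mice as male, yet 4 libraries, 2 in each group, went against this with 2156 to 3512 reads of the X-inactivation transcript Xist and 0 to 2 reads of Y-linked genes. These were controls 1 and 4 and YY1 KO hearts 1 and 4, while the other 4 libraries had at most 6 Xist reads and 2519 to 3018 reads of Y-linked genes. In cell type markers, the summed level of 10 cardiomyocyte genes was 84192 to 110172 CPM (read counts scaled to library size) in controls and 58432 to 81344 CPM in YY1 KO hearts, and 3 of the 10 fell in edgeR's quasi-likelihood test. The sums of the 8 endothelial markers (1255 to 1828 against 880.1 to 1070.1 CPM; 5 of 8 fell) and of the 7 smooth muscle and pericyte markers (1024 to 1316 against 718 to 903 CPM; 3 of 7 fell) did not overlap either. The sums of the fibroblast markers (1 of 7 rose) and of the leukocyte markers (0 of 8 tested passed) overlapped between groups, and so did that of the atrial markers (2 of 3 tested rose; 165.6 to 4305 CPM in controls and 3017 to 4080.3 CPM in YY1 KO hearts), which was lowest in control 1. The atrial list held Myl4, Myl7, Sln, Nppa and Dkk3, and whether their reads came from atrial tissue was not examined. Of the 5 erythroid genes 4, the haemoglobin genes, were listed at 0. Fewer cells of a type and less RNA per cell cannot be told apart in whole hearts.

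Many mitochondrial ribosomal protein genes carried the recognition letters of YY1 close to their start, and the sequences are shown first because the knocked-out gene encodes the factor that binds such letters. The letters searched were AANATGGC on either strand (GCCATNTT when read on the opposite one), in the window from 250 bases before to 50 bases after the first listed start of each gene in RefSeq (GRCm38.p6, the same build as mm10). A window was at hand for 68 of the 77 genes, and 20 of the 68 (29.4%) held a match, against 6.23% of all 27025 promoters and 8.51% of those of genes tested. In 15 of the 20 a match lay after the start and read on the gene's own strand, 6 to 36 bases from the start. The following 28-base runs, read 5′ to 3′ on the gene's strand with the match in capitals, come from the 8 such genes that fell in YY1 KO hearts, in order of fold change.
Mrps24 (chr11:5707652-5707679, minus strand): ggtcgcgccggcccAAGATGGCgtggtc
Mrpl42 (chr10:95501909-95501936, minus strand): acccagattgaagcAAGATGGCgagcgc
Mrpl18 (chr17:12916072-12916099, minus strand): ctttacccacagttAACATGGCtgcgac
Mrpl37 (chr4:107066827-107066854, minus strand): tccctgcacgggcaAAGATGGCggcgtc
Mrpl27 (chr11:94653785-94653812, plus strand): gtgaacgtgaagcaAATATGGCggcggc
Mrpl49 (chr19:6057726-6057753, minus strand): tcagttgaggcgccAAGATGGCagcagc
Mrpl35 (chr6:71823748-71823775, minus strand): cgtaggcaggctgcAAGATGGCggcttc
Mrps27 (chr13:99344786-99344813, plus strand): acttggtgcgctccAAGATGGCggctcc

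The same arrangement was present in 1 gene that rose and in 6 that did not pass the test, and these are printed for comparison, the gene that rose first.
Mrpl11 (chr19:4962312-4962339, plus strand): ttcacctctgacccAAAATGGCcgcgcc
Mrps18a (chr17:46111001-46111028, plus strand): gtcaggtgcgttccAAGATGGCggccct
Mrpl47 (chr3:32736729-32736756, minus strand): gggtctccattagaAACATGGCtgcgac
Mrpl21 (chr19:3283055-3283082, plus strand): gttgggactgtggaAACATGGCtgctgc
Mrpl51 (chr6:125192204-125192231, plus strand): cctgggtaaggcccAAAATGGCtcctct
Mrps7 (chr11:115604144-115604171, plus strand): tcctgacagcggccAAGATGGCtgcccc
Mrps30 (chr13:118387224-118387251, minus strand): ggtcgcggcgggcgAAAATGGCggcggc

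The core was AAGATGGC in Mrps24, Mrpl42, Mrpl37, Mrpl49, Mrpl35 and Mrps27, which fell, and in Mrps18a and Mrps7, which did not pass. It was AACATGGC in Mrpl18, which fell, and in Mrpl47 and Mrpl21, which did not pass. AAAATGGC was the core in Mrpl11, which rose, and in Mrpl51 and Mrps30, which did not pass. Mrpl27, with AATATGGC, fell. Whether the spelling of the core goes with the response was not tested. The letters contain ATG, the start codon, and whether a match coincides with the first codon was not examined. A match is a stretch of letters and not a measured binding site.

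In YY1 KO hearts more mitochondrial ribosomal protein transcripts were lower than higher. With Benjamini-Hochberg adjusted p-values of the edgeR quasi-likelihood fit held to 0.05, 28 of the 77 (36.4%) fell and 9 (11.7%) rose, while 40 did not pass. Of all genes tested, 17.3% fell and 21.6% rose, 38.9% in either direction. The median log2 fold change (YY1 KO minus control) was −0.18 over the 77 genes, with quartiles at −0.44 and 0.04, and 0.01 over all genes tested. In 29 of the 77 every YY1 KO heart lay below every control, and in 9 every one lay above, against 16.5% and 21.8% of all genes tested (38.3% in either direction). The cardiomyocyte marker sum, at 75.4% of the control mean, and the endothelial sum, at 63.1%, moved with these decreases, and their part in them was not tested. The 10 cardiomyocyte markers did not move alike. Of them 3 fell and 7 did not pass, with log2 fold changes from −1.27 to 0.31. In 3 of the 10 every YY1 KO heart lay below every control, and in 1 every one lay above.

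**Figure D1:**
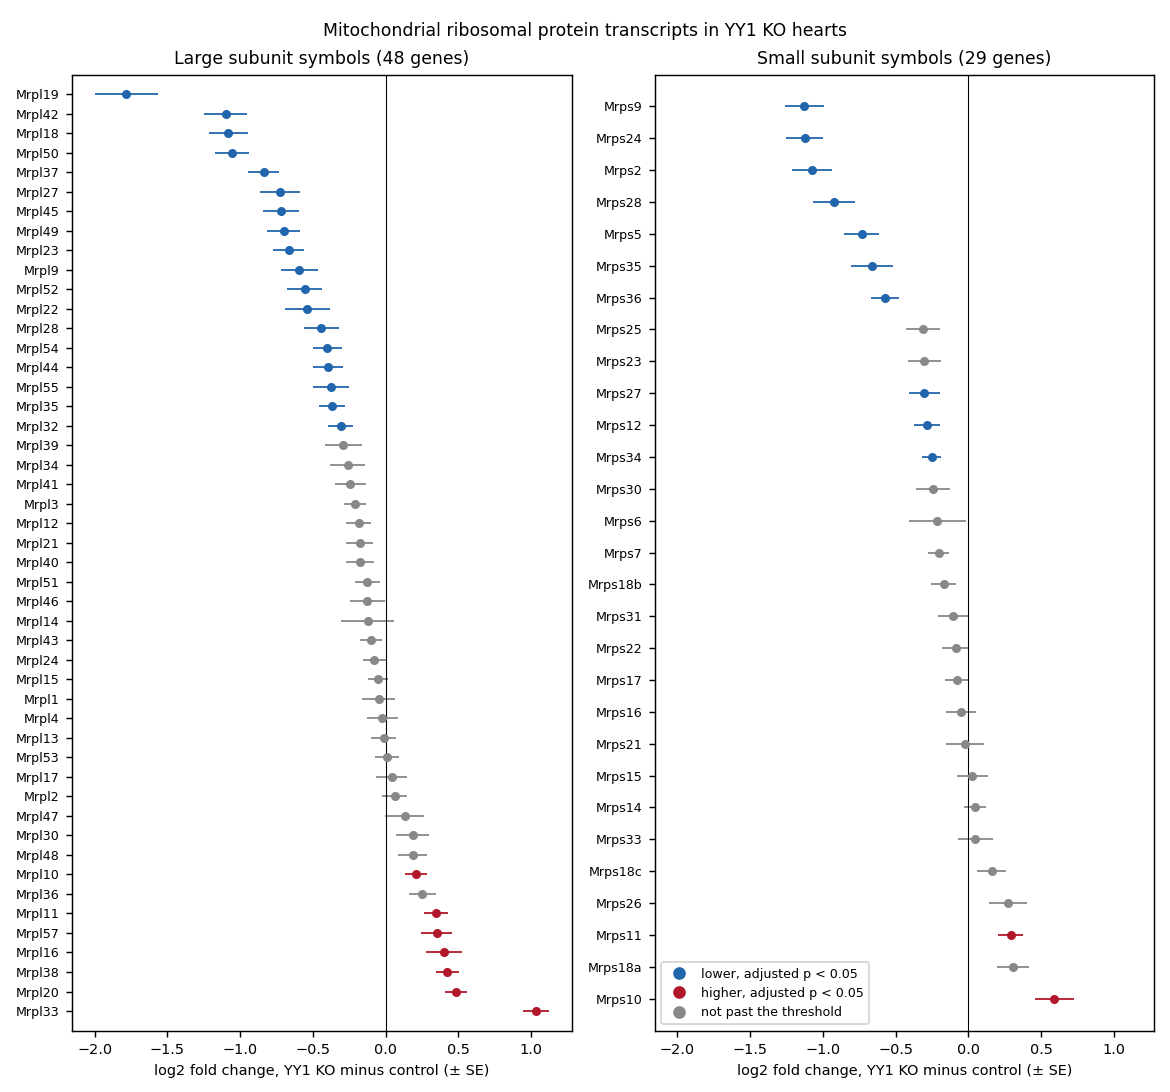
Log2 fold change of each mitochondrial ribosomal protein transcript (x axis, YY1 KO minus control; whiskers are standard errors from edgeR, 4 hearts per group), with the 48 large subunit symbols on the left and the 29 small subunit symbols on the right. Blue marks genes that fell, red those that rose and grey those not past the threshold. Mrpl19 lies farthest to the left at −1.78 and Mrpl33 farthest to the right at 1.03.

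The subunits did not separate by direction. Of 48 large subunit genes 18 fell and 7 rose, with a median log2 fold change of −0.18, and of 29 small subunit genes 10 fell and 2 rose, with a median of −0.20. Sorting by the subunit in which the protein is found in the assembled ribosome, with Mrps30 and Mrps18a in the large subunit and Mrps36 in neither, gave 18 lower and 7 higher of 50 and 9 lower and 2 higher of 26. Among 46 proteins with a bacterial counterpart 16 fell and 7 rose (median −0.10), and among 30 without one 11 fell and 2 rose (median −0.24). Decreases and increases were thus present in each class, and no difference between classes was tested.

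Summed over all 77 genes, the level was 3995 to 4705 CPM in controls and 3437 to 3838 CPM in YY1 KO hearts, which is 86.2% of the control mean. The large subunit sum went from 2935 ± 237 to 2564 ± 118 CPM (SD, n = 4; 87.4%) and the small subunit sum from 1355 ± 105 to 1135 ± 66.0 CPM (83.8%). Neither sum overlapped between groups. The ratio of the large to the small subunit sum was 2.14 to 2.19 in controls and 2.17 to 2.31 in YY1 KO hearts, and these ranges overlap. As a share of gene reads without scaling, the 77 genes took 0.398 to 0.447% in controls and 0.359 to 0.399% in YY1 KO hearts, where control 4 lay just below YY1 KO 4.

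**Figure D2:**
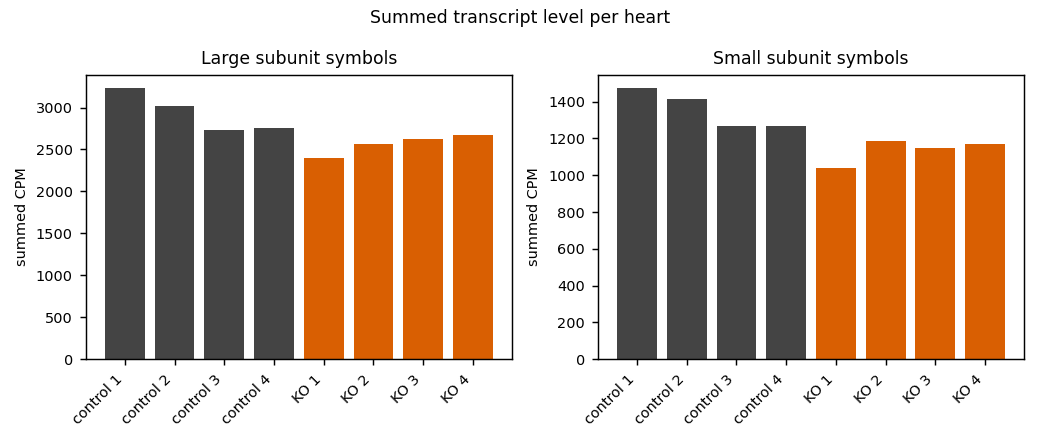
Summed level (y axis, CPM, starting at 0) of the large subunit symbols (left) and the small subunit symbols (right) in each of the 8 hearts, with controls in grey and YY1 KO in orange. Every YY1 KO bar is lower than every control bar, by the smallest margin for control 3 (2729 CPM) and YY1 KO 4 (2670 CPM) in the large subunit.

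Among large subunit genes the deepest decrease was in Mrpl19 (chromosome 6, 81957851 to 81965958, minus strand, in mm10), whose protein lies at the interface with the small subunit. It stood at 39.7, 37.0, 36.9 and 34.1 CPM in controls 1 to 4 and at 9.20, 7.13, 10.3 and 16.3 CPM in YY1 KO hearts 1 to 4. Every knockout heart was well below the lowest control, and YY1 KO 4 was the highest of the knockouts. It went from a mean of 36.9 ± 2.27 to one of 10.7 ± 3.93 CPM (SD, n = 4; log2 fold change −1.78 ± 0.22, SE; adjusted p in edgeR 0.000606).

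Mrpl42 (chromosome 10, 95480805 to 95501940, minus strand), a protein without a bacterial counterpart, had the highest mean CPM of the 77 genes over all 8 hearts, though not in the YY1 KO hearts alone. Its level was 258, 236, 201 and 212 CPM in controls 1 to 4 and 91.9, 91.3, 103 and 136 CPM in YY1 KO hearts 1 to 4. The groups were far apart, with YY1 KO 4 again the highest knockout. It fell from a mean of 227 ± 25.9 to one of 106 ± 21.1 CPM (log2 fold change −1.10 ± 0.15, adjusted p in edgeR 0.000877).

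Mrpl18 (chromosome 17, 12911349 to 12916345, minus strand) belongs to the central protuberance of the large subunit. It was at 147, 128, 118 and 111 CPM in controls 1 to 4 and 52.5, 51.8, 61.1 and 72.4 CPM in YY1 KO hearts 1 to 4. No knockout reached the lowest control, and it fell from a mean of 126 ± 15.7 to one of 59.5 ± 9.62 CPM (log2 fold change −1.08 ± 0.13, adjusted p in edgeR 0.000630). Mrpl50 (chromosome 4, 49512596 to 49521093, minus strand), a protein found in mitochondrial but not bacterial ribosomes, was at 72.8, 70.6, 60.3 and 59.4 CPM in controls 1 to 4 and 28.0, 31.8, 29.0 and 37.8 CPM in YY1 KO hearts 1 to 4. It also fell without overlap (log2 fold change −1.05 ± 0.12, adjusted p in edgeR 0.000425).

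Further decreases touched several regions of the large subunit. Mrpl37, which contacts Mrps30 in the assembled subunit, fell from a mean of 90.7 ± 4.88 to one of 50.8 ± 7.18 CPM (log2 fold change −0.84 ± 0.11). Mrpl27, near the peptidyl transferase centre, fell from a mean of 28.0 ± 4.19 to one of 16.9 ± 2.23 CPM (−0.72 ± 0.14). Mrpl45, which helps to hold the ribosome at the inner membrane near the exit tunnel, fell from a mean of 76.8 ± 8.61 to one of 46.6 ± 7.10 CPM (−0.72 ± 0.12). The exit tunnel protein gene Mrpl23 fell from a mean of 22.3 ± 2.61 to one of 14.03 ± 0.905 CPM (−0.67 ± 0.11). Mrpl49 (−0.70 ± 0.12) and Mrpl9 (−0.59 ± 0.13) completed the 10 largest decreases of the large subunit, and edgeR adjusted p was at most 0.00624 for these genes. The other 8 that fell were Mrpl52, Mrpl22, Mrpl28, Mrpl54, Mrpl44, Mrpl55, Mrpl35 and Mrpl32, with log2 fold changes from −0.56 to −0.31. Of these, Mrpl22 and Mrpl32 missed the threshold without control 2, YY1 KO 2 or YY1 KO 3, and Mrpl55 without control 1, control 2, YY1 KO 1 or YY1 KO 3.

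Against this background Mrpl33 (chromosome 5, 31596935 to 31664384, plus strand), a small protein near the exit site for transfer RNA, rose to 204% of the control level. It stood at 74.0, 73.0, 76.6 and 73.6 CPM in controls 1 to 4 and at 142, 156, 173 and 137 CPM in YY1 KO hearts 1 to 4. Controls lay within a narrow range and every knockout was far above it. It rose from a mean of 74.3 ± 1.55 to one of 152 ± 16.1 CPM (log2 fold change 1.03 ± 0.090, adjusted p in edgeR 0.000203).

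Mrpl20, an RNA-binding protein of early large subunit assembly, was at 32.1, 31.2, 34.4 and 32.9 CPM in controls 1 to 4 and 44.4, 47.3, 48.3 and 43.0 CPM in YY1 KO hearts 1 to 4. It rose without overlap (log2 fold change 0.49 ± 0.075, adjusted p in edgeR 0.00155). Mrpl38 of the central protuberance rose from a mean of 71.6 ± 5.45 to one of 96.1 ± 4.46 CPM (0.42 ± 0.081, adjusted p in edgeR 0.00377), in contrast to Mrpl18 in the same region. Mrpl11, at the base of the stalk that binds translation factors, rose from a mean of 43.9 ± 3.45 to one of 55.8 ± 3.43 CPM (0.35 ± 0.084, adjusted p in edgeR 0.0110).

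Smaller increases were less steady. Mrpl16, close to the peptidyl transferase centre, had a log2 fold change of 0.40 ± 0.12 (adjusted p in edgeR 0.0298) and missed the threshold without control 2, 3 or 4 or YY1 KO 2 or 3. Mrpl57 (0.35 ± 0.10, adjusted p in edgeR 0.0267) overlapped between the groups and passed only without control 4 or YY1 KO 2 when 1 library was left out. Mrpl10, which carries the stalk proteins, had a log2 fold change of 0.21 ± 0.074 (adjusted p in edgeR 0.0493) and missed the threshold whichever library was left out. The count of genes that rose was therefore 5 to 8 of 77 with 1 library left out, and it was 5 without control 3 or YY1 KO 3. Of the stalk proteins Mrpl12, which binds to Mrpl10, was at 181, 174, 163 and 159.6 CPM in controls 1 to 4 and 138, 140.4, 154 and 163 CPM in YY1 KO hearts 1 to 4 and did not pass (log2 fold change −0.18 ± 0.087, adjusted p in edgeR 0.123).

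**Figure D3:**
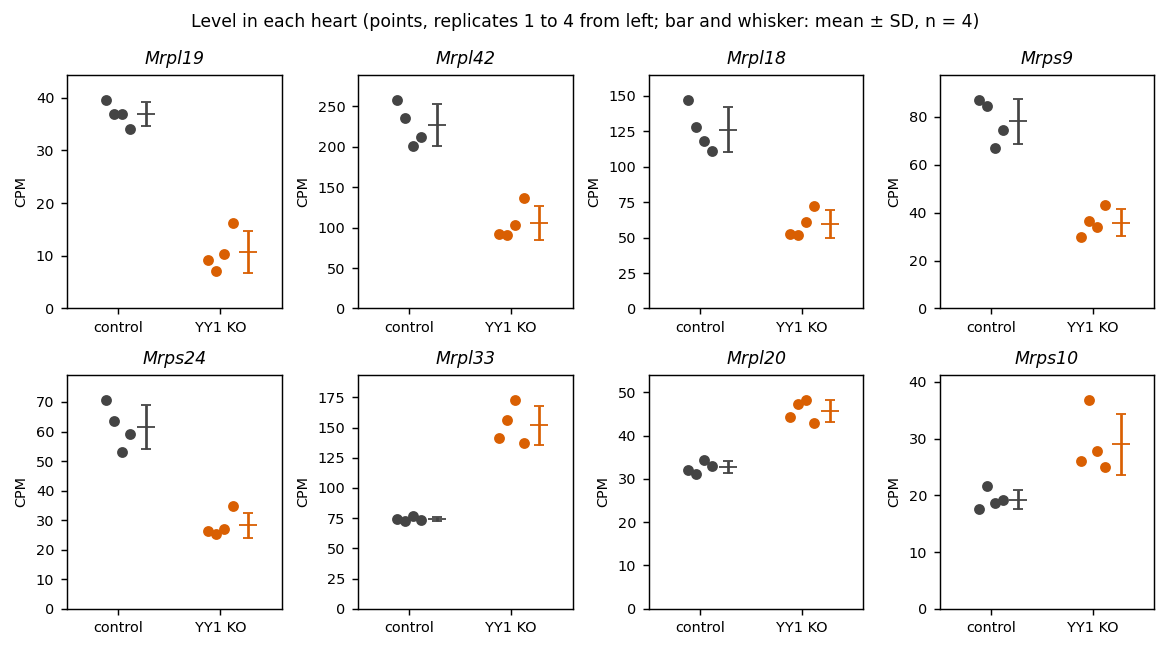
Level of 8 transcripts in each heart (y axis, CPM, starting at 0; points are replicates 1 to 4 from the left, and bar and whiskers are the mean ± SD of 4 hearts), controls in grey and YY1 KO in orange. Mrpl19, Mrpl42, Mrpl18, Mrps9 and Mrps24 are lower in every YY1 KO heart than in any control, and Mrpl33, Mrpl20 and Mrps10 are higher.

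In the small subunit, Mrps9 (chromosome 1, 42851233 to 42905683, plus strand), a head protein that contacts transfer RNA in the peptidyl site, fell most. It was at 87.1, 84.4, 66.8 and 74.4 CPM in controls 1 to 4 and 29.7, 36.4, 34.0 and 43.1 CPM in YY1 KO hearts 1 to 4. All knockouts were below all controls, and it fell from a mean of 78.2 ± 9.36 to one of 35.8 ± 5.596 CPM (log2 fold change −1.13 ± 0.13, adjusted p in edgeR 0.000504).

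Mrps24 (chromosome 11, 5703983 to 5715680, minus strand), part of the channel through which messenger RNA enters, was at 70.7, 63.6, 53.1 and 59.1 CPM in controls 1 to 4 and 26.2, 25.2, 26.9 and 34.7 CPM in YY1 KO hearts 1 to 4. It fell from a mean of 61.6 ± 7.42 to one of 28.2 ± 4.34 CPM (log2 fold change −1.13 ± 0.13, adjusted p in edgeR 0.000472). Mrps5, a second protein of the entry channel, had 58.7, 54.7, 52.2 and 56.0 CPM in controls 1 to 4 and 30.2, 29.9, 30.8 and 42.3 CPM in YY1 KO hearts 1 to 4. YY1 KO 4 stood apart from the other knockouts here but was below every control (log2 fold change −0.73 ± 0.12, adjusted p in edgeR 0.00199).

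Mrps2, which lies between head and body, was at 44.4, 43.0, 42.5 and 43.8 CPM in controls 1 to 4 and 21.0, 16.6, 18.1 and 26.7 CPM in YY1 KO hearts 1 to 4. The controls were close together and it fell from a mean of 43.4 ± 0.856 to one of 20.6 ± 4.46 CPM (log2 fold change −1.07 ± 0.14, adjusted p in edgeR 0.000769). Mrps28 (−0.93 ± 0.14) and Mrps35 (−0.66 ± 0.15) fell as well, with adjusted p in edgeR 0.00151 and 0.00719. Mrps36, a symbol of this family whose protein is now assigned to the oxoglutarate dehydrogenase complex, fell from a mean of 38.5 ± 4.16 to one of 25.9 ± 0.734 CPM (−0.57 ± 0.093, adjusted p in edgeR 0.00186). The smallest decreases were those of Mrps34 (−0.25 ± 0.067), of the decoding centre gene Mrps12 (−0.28 ± 0.090) and of the pentatricopeptide repeat gene Mrps27 (−0.30 ± 0.10). When 1 library was left out, Mrps12 passed only without control 3 or YY1 KO 4 and Mrps27 only without control 4 or YY1 KO 4. The groups overlapped for Mrps27, and with stranded counts its log2 fold change was −0.27 (edgeR adjusted p = 0.0530).

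Only Mrps10 and Mrps11 of the small subunit symbols rose. Mrps10, a head protein, was at 17.5, 21.6, 18.6 and 19.2 CPM in controls 1 to 4 and 26.1, 36.8, 27.8 and 25.1 CPM in YY1 KO hearts 1 to 4. YY1 KO 2 was the highest and no knockout fell to the control range (log2 fold change 0.59 ± 0.14, adjusted p in edgeR 0.00858). Mrps11 of the platform rose from a mean of 24.4 ± 1.69 to one of 29.8 ± 1.90 CPM (0.29 ± 0.087, adjusted p in edgeR 0.0264) and missed the threshold without control 3, control 4, YY1 KO 2 or YY1 KO 3.

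The 3 paralogues Mrps18a, Mrps18b and Mrps18c encode related proteins, of which Mrps18a sits in the large subunit. Mrps18a was at 67.5, 61.5, 61.2 and 59.7 CPM in controls 1 to 4 and 69.9, 92.3, 79.6 and 67.0 CPM in YY1 KO hearts 1 to 4. Control 1 lay just above YY1 KO 4, and the log2 fold change of 0.31 ± 0.11 missed the threshold (adjusted p in edgeR 0.0516). Mrps18b (−0.17 ± 0.086) and Mrps18c (0.16 ± 0.10) did not pass either (adjusted p in edgeR 0.147 and 0.236). Mrps30, the other small subunit symbol found in the large subunit, was at −0.24 ± 0.12 (adjusted p in edgeR 0.128).

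Per kilobase of transcript, the 77 genes spanned from 4.76 CPM (Mrpl19) to 250.5 CPM (Mrpl42) in the mean of the 8 hearts, with a median of 33.2 CPM. Mrps25, at 4.89 CPM per kilobase, was close to Mrpl19. In controls Mrpl19 (7.38 ± 0.454) lay above Mrps25 (5.42 ± 0.515), whose counts include many reads from the opposite strand. In controls the order was led by Mrpl42 at 342 ± 39.0 CPM per kilobase (SD, n = 4). Mrpl30 (181 ± 20.1), Mrps21 (163 ± 22.2) and Mrpl33 (155 ± 3.25) came next, and Mrps21 did not differ from either of the others beyond the spread. In YY1 KO hearts Mrpl33 led with 318 ± 33.7 CPM per kilobase, ahead of Mrpl30 (206 ± 23.6). Mrps21 (160.4 ± 23.9) and Mrpl42 (159 ± 31.8) followed and did not differ from each other beyond their spread. The highest level per kilobase was thus that of Mrpl42 in controls and that of Mrpl33 in YY1 KO hearts, while Mrpl30 and Mrps21, at log2 fold changes of 0.18 ± 0.11 and −0.02 ± 0.13, did not pass the test. Mrps23, the next after Mrpl42 in mean CPM over all 8 hearts, was at 176, 199, 186 and 155 CPM in controls 1 to 4 and 122, 159, 144 and 155 CPM in YY1 KO hearts 1 to 4, and it did not pass (log2 fold change −0.30 ± 0.11, adjusted p in edgeR 0.0599). Mrpl30 and Mrps21 were chosen for their levels after the values were seen.

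Hearts of one genotype differed in level. YY1 KO 4 held the highest knockout value for 20 of the 28 genes that fell, and it also had the highest Yy1 level of the knockouts (23.8 CPM against 18.0 to 22.3 CPM). Over these 28 genes the mean log2 deviation from the average of the 8 hearts was −0.44, −0.42, −0.37 and −0.16 in YY1 KO hearts 1 to 4. Yy1 was at 18.0, 22.3, 19.9 and 23.8 CPM in the same hearts, and whether its level goes with the deviation was not tested. Control 1, the library with the lowest atrial marker sum (165.6 CPM against 1221 to 4305 CPM in the other controls), held the highest control value for 24 of the 28, and whether these go together was not tested. Without YY1 KO 4, 30 genes fell and 8 rose, and without control 1, 25 fell and 8 rose.

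The sex-marker classes were balanced between the genotypes. With the class as a term in the model 26 genes fell and 8 rose. Between the 2 controls and 2 knockouts with Y-linked reads 18 fell and 6 rose, where 24.5% of all genes tested passed in either direction. Between the 2 and 2 with Xist reads edgeR called 0 of the 77 and 0 of all 13671 genes tested there (26 of the 77 at an unadjusted p under 0.05), while all 28 lower and all 9 higher genes kept the sign of their fold change in each of these fits. The genotype effect was not shown to differ between the classes, since the interaction passed for 0 of the 77 genes and 0 of 13506 (edgeR, 0 and 702 at an unadjusted p under 0.05).

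The YY1 letters were found among genes of every response. Among genes with a promoter window, 10 of the 23 that fell (43.5%), 2 of the 8 that rose and 8 of the 37 not called (21.6%) held a match. Over all genes tested the shares were 15.9% of those that fell, 6.08% of those that rose and 7.28% of those not called. Large and small subunit genes had similar shares, with 13 of 42 (31.0%) and 7 of 26 (26.9%). The median log2 fold change was −0.26 in the 20 genes with a match and −0.12 in the 48 without one, as a description with no test.

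Place and direction of the matches went together. All 15 matches after the start read on the gene's strand and all 8 before it on the opposite strand. The run holding the match before Mrps27 (99344659 to 99344686) lies inside Ptcd2 (99319647 to 99344705, minus strand), near its start and on its strand. Mrpl32, Mrps12, Mrps11, Mrpl36 and Mrpl47, with a match before the start, also have a gene starting nearby on the opposite strand. Which gene of a pair such letters belong to was not examined. Over all genes tested, matches after the start were on the gene's strand in 325 cases and on the opposite strand in 111, and those before it in 259 and 250. A match after the start on the gene's strand was present in 22.1% of mitochondrial ribosomal protein promoters, against 3.17% of genes tested. By response it was present in 8 of the 23 that fell (34.8%), 1 of the 8 that rose and 6 of the 37 not called (16.2%). Over all genes tested these shares were 8.49%, 1.44% and 2.27% in the same order. For Mrpl19, Mrps28, Mrps35, Mrpl54, Mrps34, Mrpl38, Mrpl15, Mrpl4 and Mrpl13 no promoter sequence was analysed here.

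**Figure D4:**
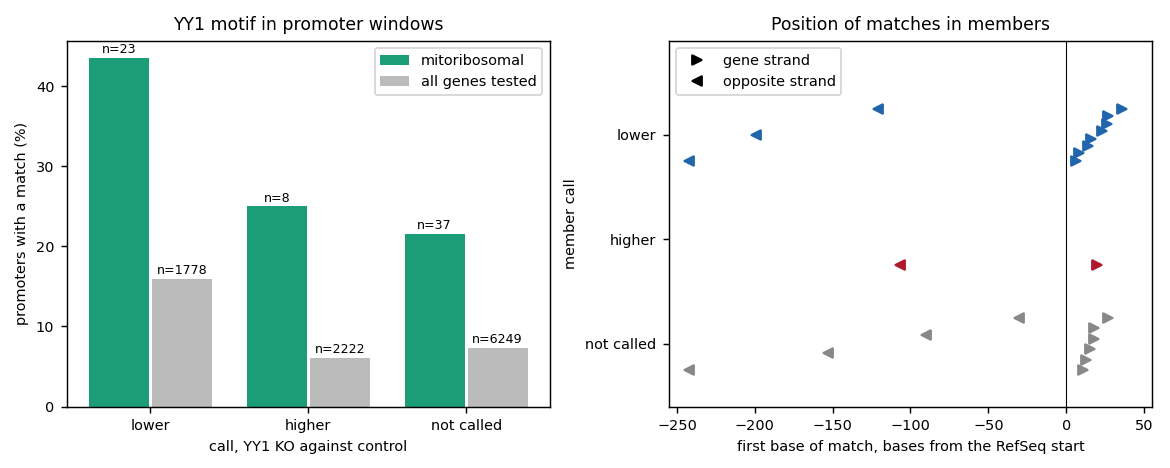
Left, share of promoter windows with a match to the YY1 letters (y axis, percent, starting at 0) by response in YY1 KO hearts, for mitochondrial ribosomal protein genes (green) and all genes tested (grey), with the number of promoters above each bar. Right, position of the 23 matches relative to the RefSeq start (x axis, bases), where right-pointing symbols are on the gene's strand and left-pointing ones on the opposite strand. All matches to the right of the start point right and all to the left point left.

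Many of these genes start close to a neighbour read in the other direction. Starts here are the ends of the genes in GENCODE and can differ from the RefSeq starts of the promoter windows. For Mrpl18 the GENCODE start is 12916345, just outside its RefSeq window of 12916042 to 12916341. Larger gaps include Mrps24 (GENCODE start 5715680, window 5707652 to 5707951) and Mrpl35 (71826969, window 71823735 to 71824034). Mrpl33 is another (31596935, window 31613701 to 31614000). For Mrps24, Mrpl35 and Mrpl33 the letters and the neighbour search thus refer to different starts, and no neighbour was found from the GENCODE start. For 32 of the 77 another gene starts within 1 kilobase on the opposite strand, and 13 of the 32 fell and 3 rose, against 15 and 6 of the 45 without such a neighbour. Of the 13 neighbours of genes that fell, 4 fell, 3 rose and 6 did not pass, much like the 16 neighbours of genes not called, of which 4 fell, 3 rose and 9 did not pass. Of all genes tested 17.3% fell and 21.6% rose. The start of Mrpl18 lies 644 bases from that of Tcp1, an overlapping gene for a subunit of the cytosolic chaperonin, which was at a log2 fold change of 0.06 ± 0.081 (adjusted p in edgeR 0.577) beside the decrease of Mrpl18 by 1.08. Mrpl49 has Fau, a cytosolic ribosomal protein gene, as its neighbour (−0.02 ± 0.068, adjusted p in edgeR 0.808). The neighbour of Mrpl9 is Oaz3, an antizyme gene, which overlaps it on the opposite strand. Oaz3 was barely detected, at 0.286 ± 0.0468 CPM in controls and 1.55 ± 0.524 CPM in YY1 KO hearts with 114 reads in all, and it rose (2.41 ± 0.36, adjusted p in edgeR 0.00126) while Mrpl9 fell.

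In other pairs the genes moved together or the neighbour alone changed. Mrpl37 and Cyb5rl both fell, Cyb5rl at −0.77 ± 0.21 on the log2 scale (adjusted p in edgeR 0.0199; not past the threshold without control 2, YY1 KO 1 or YY1 KO 3), and Mrps27 fell together with Ptcd2, which encodes a mitochondrial RNA-binding protein (−0.98 ± 0.18, adjusted p in edgeR 0.00294). Mrps11 rose while Mrpl46, 412 bases away, did not pass (−0.13 ± 0.12). Mrps18c did not pass beside Helq, a DNA helicase gene, which rose (0.69 ± 0.14, adjusted p in edgeR 0.00554). The neighbours Zfp189 of Mrpl50 (−0.46 ± 0.18), Zfp661 of Mrps5 (0.33 ± 0.17), Eme1 of Mrpl27 (−0.82 ± 0.66) and Ppp1r10 of Mrps18b (−0.19 ± 0.15) did not pass. Eme1 was barely detected, with 95 reads in all and as few as 3 in a library. Some pairs were picked after their values were seen. In these, Mrps12 fell with Sars2, the mitochondrial seryl-tRNA synthetase gene (−0.98 ± 0.15), while Mrpl47 and Mrpl36 did not pass beside the complex I genes Ndufb5 (−0.90 ± 0.13) and Ndufs6 (−0.96 ± 0.15), which fell.

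**Figure D5:**
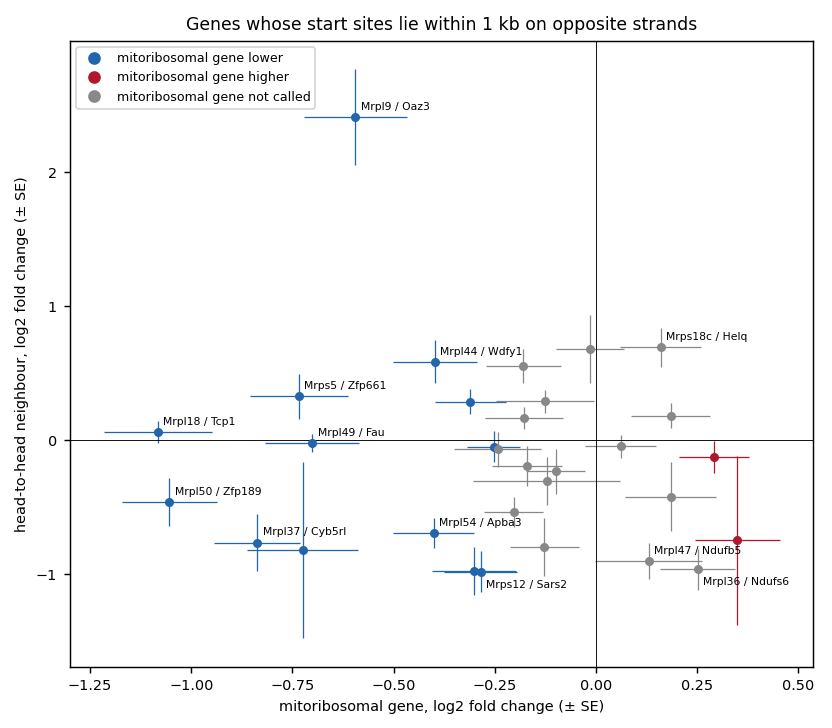
Log2 fold change of each mitochondrial ribosomal protein transcript (x axis) against that of the gene whose start lies within 1 kilobase on the opposite strand (y axis), both YY1 KO minus control with standard errors as whiskers; colours give the call of the mitochondrial ribosomal gene. The points for genes that fell are spread from −0.98 to 2.41 on the y axis.

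Reads on the opposite strand may bear on a few of the values, as counts irrespective of strand were used. How many such reads these counts hold was not examined. For Mrps25, which overlaps Nr2c2, 48.9% of strand-resolved reads came from the other strand, for Mrpl48, which overlaps Rab6a, 17.0%, and for Mrpl19, which overlaps Gcfc2, 8.18%. Mrps25 and Mrpl48 did not pass the test. With stranded counts 27 genes fell and 9 rose.

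Proteins of the mitochondrial ribosome with other names gave 2 decreases and 1 increase among 6. Gadd45gip1, a large subunit protein also known as CRIF1, was at 46.0, 38.4, 37.8 and 40.3 CPM in controls 1 to 4 and 17.7, 14.3, 15.1 and 20.6 CPM in YY1 KO hearts 1 to 4. It fell in every knockout relative to every control (log2 fold change −1.26 ± 0.13, adjusted p in edgeR 0.000324). Ptcd3, a pentatricopeptide repeat protein of the small subunit, fell by a log2 fold change of −0.43 ± 0.14 and missed the threshold without control 1 or 2 or YY1 KO 1, 2 or 3. Chchd1 was called higher (0.30 ± 0.10), but with stranded counts its value was −0.20 (edgeR adjusted p = 0.118), so its direction depends on the strand; with 1 library left out it passed only without control 1 or YY1 KO 2. Dap3, Aurkaip1 and Ict1 did not pass.

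Among 30 factors that assemble the mitochondrial ribosome or modify its RNA 4 (13.3%) fell and 9 (30.0%) rose (median log2 fold change 0.06), near the 17.3% and 21.6% of all genes tested. Rpusd4, a pseudouridine synthase of the large ribosomal RNA, fell most (−1.91 ± 0.30, adjusted p in edgeR 0.00163), followed by the 2′-O-methyltransferase genes Rnmtl1 (Mrm3; −0.60 ± 0.13) and Mrm1 (−0.60 ± 0.20) and by Nsun4 (−0.38 ± 0.12). Those that rose included Mpv17l2 (0.86 ± 0.10), the cytidine methyltransferase gene Mettl15 (0.83 ± 0.13), Mterf3 (0.64 ± 0.095) and the RNA helicase genes Dhx30 (0.50 ± 0.091) and Ddx28 (0.32 ± 0.11). The other 4 were Wbscr16, Trub2, Fastkd2 and Mtg1, at log2 fold changes from 0.33 to 0.64. When 1 library was left out, Mrm1 passed only without control 3 or YY1 KO 3 and Ddx28 only without control 2. Nsun4 missed the threshold without control 1, control 2, YY1 KO 1 or YY1 KO 3. Mtg1 missed it without control 2, control 4 or YY1 KO 1.

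Of 17 mitochondrial translation factors and regulators 8 (47.1%) fell and 0 rose (median −0.27), against 17.3% and 21.6% of all genes tested. The elongation factor gene Tufm was at 276, 257, 229.7 and 243 CPM in controls 1 to 4 and 131, 111, 136 and 183 CPM in YY1 KO hearts 1 to 4. Every knockout was below every control (log2 fold change −0.84 ± 0.15, adjusted p in edgeR 0.00259), and Tsfm, whose product recharges the Tufm protein, fell by a log2 fold change of −0.45 ± 0.10. The release and recycling factor genes Mtrf1l (−0.73 ± 0.16) and Mrrf (−0.88 ± 0.15), the peptide deformylase gene Pdf (−0.93 ± 0.20) and the messenger RNA stabilising pair Lrpprc (−0.79 ± 0.14) and Slirp (−0.80 ± 0.20) fell too. Taco1, an activator of translation, was the eighth (−0.21 ± 0.074), and with 1 library left out it passed only without control 3 or YY1 KO 4. Over the 3 lists together 14 of 53 (26.4%) fell and 10 (18.9%) rose, beside 17.3% and 21.6% of all genes tested. The total joins lists with different counts. Of the 30 assembly and modification factors 4 fell and 9 rose, and of the 17 translation factors 8 fell and 0 rose. The 10 include Chchd1, whose direction turned with stranded counts.

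Set beside related gene sets, complex I subunit genes held 18 lower and 1 higher of 36 tested, with a median log2 fold change of −0.47. The cytosolic ribosomal protein genes held 10 lower and 8 higher of 74, with a median of −0.03. Against 28 (36.4%) lower and 9 (11.7%) higher of the 77 mitochondrial ribosomal genes, 13.5% of the cytosolic ribosomal genes fell and 10.8% rose, and 2.78% of the complex I genes rose. The 3 sets come from the same hearts, and no difference between them was tested.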

How the data were processed

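The deposited tables hold raw counts of reads per gene symbol, 1 table for each of 8 hearts (4 control, 4 YY1 KO, grouped by the labels). Per the submitters' processing notes the authors trimmed reads with Trimmomatic and aligned them with STAR to mm10. For versions, settings and annotation the sources used here give nothing. Counts irrespective of strand were used. Reads outside genes (33.0 to 38.9% of each library) were left out.

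The filter was filterByExpr of edgeR 4.0.16 (at least 10 reads or 0.648 CPM, in 4 or more libraries), and the test that of edgeR as well (TMM, robust quasi-likelihood F test, Benjamini-Hochberg over 13506 genes, threshold 0.05). Fold changes are YY1 KO minus control; CPM levels use library sizes after TMM scaling. Libraries of a group differed from each other by more than sampling noise (chi-square divided by its degrees of freedom 14.6 to 97.4). Multimapping reads (11.8 to 14.1%) are not counted, so genes with near-identical copies are undercounted.

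Positions, neighbours and transcript lengths come from GENCODE M21 (GRCm38), and promoter windows from RefSeq. The code was tested on simulated data. Alternatives were RLE and upper quartile scaling, DESeq2 1.42.0, limma 3.58.1 (voom), no filter, a filter at 5 CPM in 4 libraries, stranded counts, subunits by structure, a replicate block and leaving out each library; a term for the sex-marker class and each class alone were added after the data were seen. The genes and lists were chosen with earlier results of these data known. Named genes are Yy1, the called genes with the largest fold change (large subunit up to 10 lower and 6 higher, small subunit up to 8 and 6), genes whose call changes with stranded counts, the 3 with the highest mean CPM, Mrps18a, Mrps18b, Mrps18c, Mrps30 and Mrps36, up to 4 of each other list by p, and next-door genes of these; any others were chosen after their values were seen. Software was R 4.3.3, Python 3.11.15 and, for plots, matplotlib 3.10.9.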

Additional observations from a re-analysis of the deposited data

Results flagged for a closer look

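In 2 genes 1 YY1 KO heart stood apart from the other 3. Mrps5 was at 42.3 CPM in YY1 KO 4 and at 29.9 to 30.8 CPM in the others, a gap of 0.932 of the group's range. Mrpl11 was at 60.9 CPM in YY1 KO 2 and at 53.4 to 54.6 CPM in the others, a gap of 0.838. Both gaps exceed Dixon's critical value at the 95% level, which chance passes in about 1 of 20 sets. Of the 66 sets of 4 values examined, 2 passed.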

How the results depend on the processing

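All 28 genes that fell and all 9 that rose kept their sign in every alternative fit, and 23 of the 28 and 5 of the 9 kept their call whichever library was left out. Leaving out 1 library gave 23 to 30 lower and 5 to 8 higher genes, with 15 to 19 lower and 4 to 6 higher in the large subunit and 8 to 11 lower and 1 to 3 higher in the small subunit. In the other lists of mitochondrial translation it gave 10 to 15 lower and 7 to 10 higher. Scaling by RLE gave 32 lower and 7 higher, and limma-voom 27 and 8. In the Y-positive hearts alone, 18 genes were lower, with 11 lower and 4 higher in the large subunit, and 8 lower and 6 higher in the other lists. In the Xist-positive hearts alone edgeR called 0 genes in each of these counts, with 26 of the 77 at an unadjusted p under 0.05, and Yy1 was at a log2 fold change of −0.76 (adjusted p = 0.116). Directions turned for Chchd1 with stranded counts (−0.20), for Tcp1 (−0.0138) and Ska3 (0.15) in the Xist-positive hearts alone and for Mrpl46 (0.0276) in the Y-positive ones. Mrps21, near 0 throughout, turned to 0.172 in the Y-positive hearts alone and ranged from −0.102 to 0.0549 with 1 library left out. The cause of these changes was not tested, though 2 against 2 libraries leave fewer samples. Whether the replicate numbers pair the hearts is not known from the labels. Same-numbered hearts shared the sex-marker class, while correlations of their deviations were −0.46, 0.34, −0.06 and 0.27 and do not settle it. With the replicate number as a block 22 genes were lower and 6 higher, with 1 higher in the small subunit.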

Other observations

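Promoters of mitochondrial ribosomal protein genes also held letters of another family of factors known for such genes. CCGGAAG, letters bound by ETS-family factors such as GABP, on either strand were present in 35.3% of the 68 windows and in 17.6% of those of genes tested. The share was 26.1% in the mitochondrial ribosomal genes that fell in YY1 KO hearts (6 of 23), 2 of 8 in those that rose and 43.2% in those not called (16 of 37). Over all genes tested it was 11.6%, 23.5% and 17.3%. The motif of nuclear respiratory factor 1 was present in 19.1% of the 68 windows and in 10.2% of those of genes tested, and in 5 of the 23 genes that fell, 1 of the 8 that rose and 7 of the 37 not called.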
